A study of Mus musculus with 8 samples.

Results

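Fibroblasts grown from wild-type mouse hearts and from hearts of mice labelled as Siah knockout were compared for how they respond to low oxygen. The quantity described is the difference of hypoxia responses, on the log2 scale: the change from normoxia to hypoxia in knockout-labelled cells minus the same change in wild-type cells. A negative value means that the rise with hypoxia was smaller, the drop larger, or the direction turned from up to down, in knockout-labelled cells. All 8 of the 8 samples enter it, 2 in each of the 4 groups, which are wild-type normoxia, wild-type hypoxia, knockout-labelled normoxia and knockout-labelled hypoxia. The hypoxia groups spent 6 h in a chamber at 1% O2 and the normoxia groups stayed untreated, and every culture was of freshly isolated cells in DMEM with 10% FBS. No other allele or agent is named for any group. Neither the Siah gene that was altered nor the cells in which it was altered is given in the labels. Of the 24306 mouse genes with a spot on the array, 17014 were bright enough to be tested, each read by its brightest spot. Of these, 366 entered a class of weaker, stronger or turned response, defined below.

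Cells sense low oxygen through prolyl hydroxylases, the Egln proteins, which in normal oxygen mark the alpha subunits of the hypoxia-inducible factor HIF for destruction through the Vhl ubiquitin ligase. In low oxygen this marking slows, HIF accumulates, and it switches on genes for glucose uptake, glycolysis, vessel growth, mitophagy and collagen modification, together with several Egln genes that feed back on it. Siah proteins are RING-type ubiquitin ligases that are known to promote the degradation of Egln hydroxylases, so a comparison of Siah-altered and unaltered cells asks whether the transcript response to hypoxia depends on them.

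The array is a 1-colour Agilent design, and the deposited values are taken as log2 intensities between 2.13 and 16.0, so values near 16 are at the top of the scanner range. Pairs of samples had a Pearson r over spots of 0.984 to 0.987 within a group, and of 0.984 to 0.990 between groups. The fibroblast markers averaged 12.68 to 13.05 in every sample, as befits the labelled cell type, while cardiomyocyte markers averaged 4.02 to 4.32 and endothelial markers 5.23 to 5.45. Macrophage and leukocyte markers were also bright, at 11.14 to 11.62 in the wild-type samples and 9.92 to 10.75 in the knockout-labelled ones, with replicate 2 the highest in the wild type and the lowest in the knockout-labelled cells. In such bulk RNA, fewer cells of a type and less RNA per cell cannot be told apart. The submitters describe the 2 samples of a group as biological replicates, without saying which came from a common animal or dish, so a p-value here reflects no more than the spread among these 8 samples.

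No gene had a called difference of hypoxia responses. In limma, which fitted a mean for each group over all 8 samples and pooled the spread, 0 of 17014 genes (0%) passed an adjusted p under 0.05. At an unadjusted p under 0.05 there were 416 genes (2.45%), of which 200 (1.18%) were higher and 216 (1.27%) lower in knockout-labelled cells, where 851 would be expected if no gene differed. The fit took samples of a number as unrelated; with same-numbered samples of a genotype taken as 1 culture, the count was 751 (fixed block) or 854 (random block), again with 0 called. The median standard error of a difference was 0.42, and in data simulated from these means and spreads, the fit called 0% of genes given a difference of 1, 32% of those given 2 and 72% of those given 4. The responses to hypoxia taken within each genotype gave 0 called genes in the wild type (616 at an unadjusted p under 0.05, 3.62%) and 0 in knockout-labelled cells (443, 2.6%). All differences below are therefore given as sizes with their errors, not as calls.

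Each gene has 4 pairings of a hypoxia with a normoxia sample in either genotype. A gene was put in a class where the difference was at least 1 and all 4 knockout-labelled pairings lay on one side of all 4 wild-type pairings. Such separation was seen, at any size, for 1407 genes (8.27%), with the knockout-labelled response higher for 659 (3.87%) and lower for 748 (4.4%), and at a difference of at least 1 for 540 genes (3.17%). All pairings of the wild type went one way and all of the knockout-labelled cells the other, at any size, for 411 genes (2.42%). The response was termed turned where the genotypes moved in opposite directions by at least 0.5 each, weaker where the larger response was the wild type's and at least 1, and stronger where it was that of the knockout-labelled cells. By these rules 81 genes had a weaker response (37 of them higher and 44 lower with hypoxia in the wild type), 55 a stronger one (32 and 23 by the direction in knockout-labelled cells) and 230 a turned one (123 higher and 107 lower in the wild type). At the edge of the classes, Arl14epl at 1.01 was inside and Tcte1 at -0.997 was just outside.

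Genes in the classes were dim. Their median log2 intensity was 4.03, against 7.79 over all genes tested. Of genes with a mean between 3.39 and 4, 6.45% were in a class, and of those between 4 and 5, 7.15%. From 5 to 6 the share was 2.75%, from 6 to 8 it was 0.246%, and at 8 or more it was 0.0612%. The median size of the difference followed the same course, at 0.46, 0.48, 0.36, 0.22 and 0.11. A second spot above the brightness filter was present for 64 class genes, and it gave the same sign for 34 and the same sign with a size of at least 1 for 8. Over all genes tested, which were brighter in the median, these were 3781 and 222 of 7320, so the share with the same sign was near that of all genes.

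**Figure D1:**
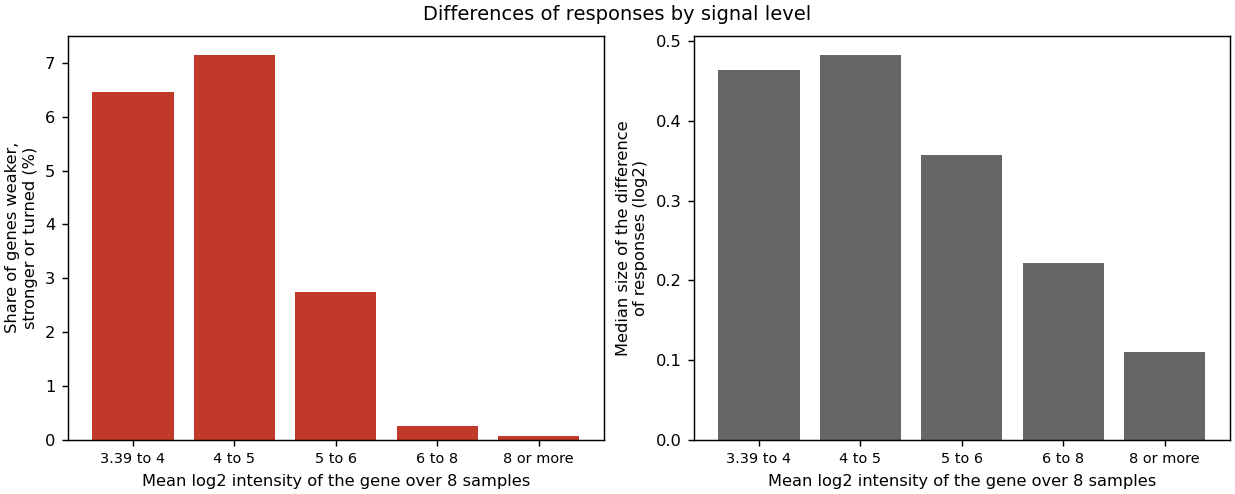
Share of genes in the weaker, stronger or turned classes (left, percent) and median size of the difference of responses (right, log2) by mean log2 intensity over the 8 samples. Both are higher for dim genes: 6.45% and 0.46 in the lowest bin against 0.0612% and 0.11 in the highest.

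Only 12 class genes had a mean of 6 or more, and 11 of these carry a gene symbol that is not a clone or predicted-gene name. The stronger class at this brightness included Siah2 itself, the ubiquitin ligase. Wild-type cells gave Siah2 values of 9.04 and 8.71 in normoxia, and of 9.55 and 8.96 in hypoxia. Knockout-labelled cells gave 6.60 and 7.39 in normoxia, and 9.29 and 8.87 in hypoxia. The 2 knockout-labelled normoxia samples stood below all others, and the other 6 overlapped. The response was 0.38 in the wild type and 2.08 in knockout-labelled cells, a difference of 1.70 (SE 0.50, unadjusted p = 0.0135 and adjusted p = 1.00 in limma). A single spot reads Siah2, and where it lies relative to the altered sequence is unknown, so the genotype labels cannot be checked by it.

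**Figure D2:**
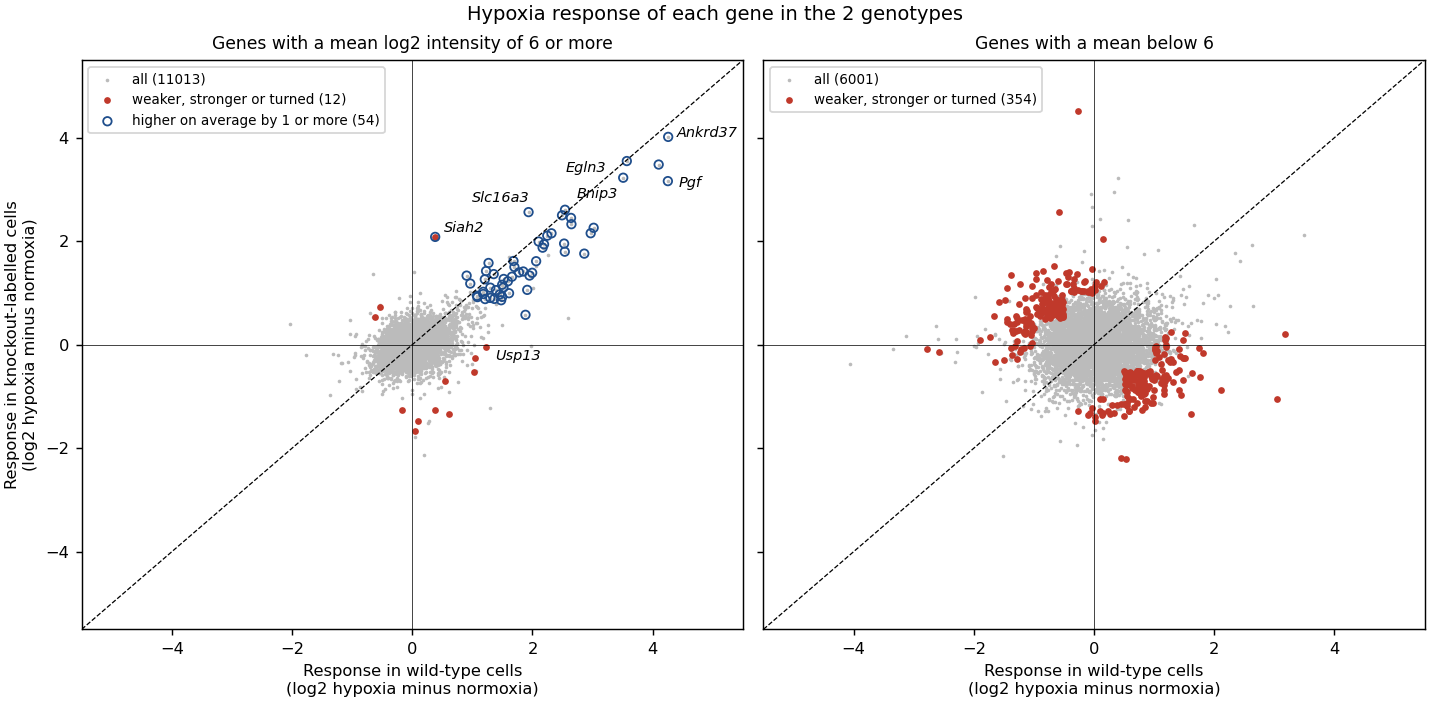
Hypoxia response in knockout-labelled cells (vertical, log2) against that in wild-type cells (horizontal, log2) for each gene tested, with genes of a mean of at least 6 on the left and dimmer ones on the right; the dashed line marks equal responses, and 1 gene lies outside the axes. Among the brighter genes 12 are in a class, while 54 genes higher with hypoxia on average mostly lie somewhat below the line.

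In the weaker class, Usp13 and Abhd6 were the genes at this brightness. Usp13, a ubiquitin-specific protease, read 6.50 and 6.26 in normoxia and 7.48 and 7.73 in hypoxia in the wild type. In knockout-labelled cells Usp13 read 7.12 and 7.11 in normoxia and 7.20 and 6.95 in hypoxia. Wild-type cells were apart in normoxia and hypoxia, and knockout-labelled cells lay between them in both. The response was 1.22 in the wild type and -0.04 in knockout-labelled cells, a difference of -1.26 (SE 0.28, unadjusted p = 0.00376 and adjusted p = 1.00 in limma). A second spot of Usp13 gave 0.06 and the dimmest spot -1.11, so its spots disagree. For Abhd6, a lipase that degrades the endocannabinoid 2-arachidonoylglycerol, the samples read 4.98 and 5.66 in wild-type normoxia, 6.56 and 6.17 in hypoxia, 6.25 and 6.34 in knockout-labelled normoxia and 5.82 and 6.24 in hypoxia. Only wild-type normoxia stood apart, below the other 3 groups. Its difference was -1.31 (SE 0.42), while its other spot gave -0.12.

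The other members of the stronger class at this brightness were lower with hypoxia in knockout-labelled cells, and 1 sample set much of each difference. Psmc5, an ATPase of the proteasome's regulatory particle, read 11.74 to 12.10 in 7 samples and 9.09 in knockout-labelled hypoxia replicate 1. Elane, neutrophil elastase, read 8.03 to 8.83 in 7 samples and 6.43 in that sample. Atp1b1, a subunit of the sodium pump, read 8.66 and 8.87 in knockout-labelled normoxia, 6.80 in hypoxia replicate 1 and 8.20 in replicate 2. The 1 library was thus low for all 3. The differences were -1.72 (SE 1.09) for Psmc5, -1.64 (SE 0.69) for Elane and -1.09 (SE 0.61) for Atp1b1, and without that library they were -0.39, -0.84 and -0.40. In the wild type the responses were 0.05 for Psmc5, 0.38 for Elane and -0.17 for Atp1b1. Elane thus moved the other way there, by less than the 0.5 needed for the turned class.

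Turned responses at this brightness were found for Slc35a3, Dct and Mchr1, whose group means were higher with hypoxia in wild-type and lower in knockout-labelled cells. The group means of Cfap54 and Bcar3 went the other way. Slc35a3, the Golgi transporter of UDP-N-acetylglucosamine, read 6.78 and 6.68 in normoxia and 7.14 and 7.40 in hypoxia in the wild type. In knockout-labelled cells Slc35a3 read 7.47 and 7.07 in normoxia and 6.43 and 6.70 in hypoxia. The 2 conditions did not overlap within either genotype. Its difference was -1.24 (SE 0.32, unadjusted p = 0.00711 and adjusted p = 1.00 in limma), and its other spots gave -0.23 and -0.51. Dct, the melanin-synthesis enzyme dopachrome tautomerase, had a difference of -1.96 (SE 0.77), which rests on a value of 6.42 in knockout-labelled hypoxia replicate 1 against 7.66 to 8.84 elsewhere, and without that library it was -1.07. Mchr1, a receptor of melanin-concentrating hormone, had -1.56 (SE 0.86). Its knockout-labelled samples read 6.53 and 6.90 in normoxia and 7.15 and 5.23 in hypoxia, which overlap, and their pairings ran from -1.67 to 0.62. Its turn thus rests on the 5.23, and the difference was -0.60 when that sample was left out. Cfap54, a protein of the ciliary axoneme, read 6.55 and 6.66 in wild-type normoxia, 6.16 and 5.97 in hypoxia, 5.32 and 6.31 in knockout-labelled normoxia and 6.73 and 6.36 in hypoxia. Its groups were ordered oppositely in the genotypes, by 1.26 (SE 0.49). The knockout-labelled pairings of Cfap54 ran from 0.05 to 1.41, the largest with the 5.32 of normoxia replicate 1. Its second spot, near background at 2.97, gave 0.08. Bcar3, an adaptor of the p130Cas pathway, had a difference of 1.15 (SE 0.49). Its knockout-labelled samples read 6.27 and 5.42 in normoxia and 6.63 and 6.11 in hypoxia, which overlap.

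Among the other Siah genes, Siah1b separated in the opposite direction to Siah2. It read 7.98 and 7.89 in wild-type normoxia, 8.06 and 8.24 in hypoxia, 8.81 and 8.42 in knockout-labelled normoxia and 8.17 and 8.41 in hypoxia. Values were higher with hypoxia in both wild-type samples and lower in both knockout-labelled ones, with a difference of -0.55 (SE 0.30). Siah1a, a closely related copy, ranged from 8.78 to 9.44 over the 8 samples with a difference of -0.06 (SE 0.26), and whether each spot reads its gene alone is unknown. Siah3 was dim, and its -1.37 (SE 1.08) came with replicates as far apart as 6.60 and 4.30. Of the 18 genes of the oxygen-sensing list, which holds the Siah ligases, HIF subunits, hydroxylases and degradation factors, 13 had a difference below 0, with a median of -0.07. Over all genes tested 50.2% were below 0 and the median was -0.0016.

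Of the 5 HIF subunits, 4 were below 0 and Hif3a was above. Hif1a and Epas1, the main oxygen-labile subunits, had differences of -0.08 (SE 0.61) and -0.11 (SE 0.50). Hif3a, an alpha subunit with repressive splice forms, was dim, at 4.41 and 3.88 in wild-type normoxia, 3.46 and 3.22 in hypoxia, 3.31 and 3.55 in knockout-labelled normoxia and 3.34 and 3.75 in hypoxia. Its wild-type values were lower in hypoxia and its knockout-labelled values overlapped, giving 0.93 (SE 0.37). Arnt, the partner shared by the alpha subunits, had -1.37 (SE 0.98), set by a value of 6.59 in wild-type normoxia replicate 1 against 8.05 to 8.88 elsewhere, and -0.22 without that library. Its dimmer spots gave 0.03 and 0.63. Cul2, the scaffold of the Vhl ligase, and Hif1an, the asparaginyl hydroxylase of HIF, had 0.35 (SE 0.28) and 0.24 (SE 0.26).

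Most known HIF targets had a difference below 0, but every 95% interval of the difference spanned 0 and no member passed the test. Of 68 targets tested, 49 had a difference below 0 and 19 above, with a median of -0.16, where 50.2% of all genes tested were below 0. The median response was 0.74 in the wild type against 0.50 in knockout-labelled cells. With hypoxia 60 of the 68 were higher in the wild type and 56 in knockout-labelled cells. Differences ran from -0.90 to 0.63, 0 reached an unadjusted p under 0.05, and 0 were in a class. The pairings separated for 3 targets with a lower response, Egln1, Ero1a and Vhl, and for 2 with a higher one, P4ha1 and Aldoa, which is near the background shares of 4.4% and 3.87%. The median depended on single samples: it was -0.32 when wild-type hypoxia replicate 1 was left out and -0.01 when replicate 2 was.

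The promoters of the 3 targets whose responses separated downward, Egln1, Ero1a and Vhl, and of Slc16a3, the target with the highest difference in the fit of all samples, are shown with the core of the hypoxia response element that HIF binds. They are RefSeq sequences of the build GRCm38.p6, in windows of 300 bases that run up to and just past the start of the gene, written 5′ to 3′ on the strand of the gene. Capitals mark ACGTG or GCGTG, or their reverse complements CACGT and CACGC.
Egln1, chr8:124949205-124949504, minus strand: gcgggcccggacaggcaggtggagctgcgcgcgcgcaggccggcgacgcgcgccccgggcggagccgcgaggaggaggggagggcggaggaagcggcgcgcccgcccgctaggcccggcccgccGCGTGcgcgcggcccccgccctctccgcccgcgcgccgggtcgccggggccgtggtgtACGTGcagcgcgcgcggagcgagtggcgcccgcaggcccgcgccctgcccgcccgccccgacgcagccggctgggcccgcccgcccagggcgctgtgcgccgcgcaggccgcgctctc
Ero1a, chr14:45318523-45318822, minus strand: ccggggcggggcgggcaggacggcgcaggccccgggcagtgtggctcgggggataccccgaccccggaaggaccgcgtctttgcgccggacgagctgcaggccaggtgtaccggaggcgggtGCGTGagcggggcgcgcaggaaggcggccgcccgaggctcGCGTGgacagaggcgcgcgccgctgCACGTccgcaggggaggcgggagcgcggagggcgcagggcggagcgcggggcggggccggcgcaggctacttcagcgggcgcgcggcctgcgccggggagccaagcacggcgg
Slc16a3, chr11:120948817-120949116, plus strand: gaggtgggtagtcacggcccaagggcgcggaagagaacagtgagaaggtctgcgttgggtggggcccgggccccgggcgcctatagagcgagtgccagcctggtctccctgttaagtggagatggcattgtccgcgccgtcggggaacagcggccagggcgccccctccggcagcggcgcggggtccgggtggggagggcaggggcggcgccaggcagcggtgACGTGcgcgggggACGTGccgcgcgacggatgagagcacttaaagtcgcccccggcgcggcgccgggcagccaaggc
Vhl, chr6:113623744-113624043, plus strand: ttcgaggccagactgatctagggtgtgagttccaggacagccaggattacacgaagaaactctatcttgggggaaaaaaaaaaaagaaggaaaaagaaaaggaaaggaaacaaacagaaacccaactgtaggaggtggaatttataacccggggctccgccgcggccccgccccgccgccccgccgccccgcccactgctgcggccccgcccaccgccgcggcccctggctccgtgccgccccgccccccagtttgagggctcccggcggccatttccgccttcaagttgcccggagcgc
Relative to the start of the gene, the Egln1 window holds matches at -126 and -68, that of Ero1a at -128, -88 and -63, that of Slc16a3 at -27 and -14, and that of Vhl none. The core is short and common: 43.8% of all 32851 promoters in the table hold it, as do 55.1% of those of genes tested and 75.6% of those of the HIF targets, of which 56 matched by symbol. Among genes higher with hypoxia on average, described below, 71.2% of promoters held it. A match describes the letters of the window and is not a site of binding.

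Egln1, the main oxygen-sensing prolyl hydroxylase, read 11.88 and 11.89 in normoxia and 12.57 and 13.08 in hypoxia in the wild type. In knockout-labelled cells it read 12.10 and 11.94 in normoxia and 12.50 and 12.33 in hypoxia. Normoxia and hypoxia did not overlap in either genotype, but the step was smaller in knockout-labelled cells. The response was 0.94 against 0.40, a difference of -0.54 (SE 0.32, 95% interval -1.31 to 0.23). Ero1a, the oxidase that supplies disulfide bonds in the endoplasmic reticulum, read 11.27 and 11.07, 12.50 and 12.88, 11.34 and 11.47, and 12.48 and 12.55 in wild-type normoxia, wild-type hypoxia, knockout-labelled normoxia and knockout-labelled hypoxia. Its response was 1.52 against 1.11, a difference of -0.41 (SE 0.29). Vhl, the substrate receptor of the ligase that degrades HIF, read 9.68 and 9.65, 10.38 and 10.89, 9.59 and 9.74, and 10.27 and 10.13 in that order. All 4 hypoxia values were above all 4 normoxia values, and the response of 0.98 in the wild type stood against 0.53, a difference of -0.44 (SE 0.31). All 3 differences rested in large part on wild-type hypoxia replicate 2, the highest sample for each. Without it they were -0.28 for Egln1, -0.22 for Ero1a and -0.19 for Vhl.

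By role, the targets for oxygen sensing and feedback had 7 of 9 differences below 0, with a median of -0.24. Egln3, a hydroxylase that HIF induces strongly, responded by 3.51 and 3.23, a difference of -0.28 (SE 0.83), and Ankrd37, an ankyrin-repeat protein, by 4.26 and 4.02, a difference of -0.24 (SE 0.97). Kdm3a, a histone demethylase, and Ddit4, an inhibitor of mTORC1, had -0.17 (SE 0.49) and -0.15 (SE 0.41). Bhlhe40, a circadian repressor, had 0.31 (SE 0.46), and -0.02 without knockout-labelled normoxia replicate 1. Its dim relative Bhlhe41 had the lowest difference of the list, -0.90 (SE 0.75).

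Of the targets for glucose uptake and glycolysis, 17 of 22 were below 0, with a median of -0.14. Of the glycogen enzymes, Gbe1, the branching enzyme, responded by 0.95 and 0.36, a difference of -0.59 (SE 0.44), and Gys1, the synthase, by 1.59 and 1.23, a difference of -0.36 (SE 0.41). Without wild-type hypoxia replicate 2 these were -0.15 and 0.02. Slc2a1, the basal glucose transporter, had -0.34 (SE 0.55), Hk2, the inducible hexokinase, -0.20 (SE 0.64), and Pdk1, a kinase that inhibits pyruvate dehydrogenase, -0.14 (SE 0.58). Hk1, the constitutive hexokinase, had -0.87 (SE 0.74) on its brightest spot, set by a value of 12.85 in knockout-labelled hypoxia replicate 2 against 14.41 to 14.60 elsewhere. Its next spot, at a mean of 12.54, responded by 0.87 and 0.37, a difference of -0.50, and the mean over its spots gave -0.39. Pfkl, the liver-type phosphofructokinase, was at 0.20 (SE 0.28) on its brightest spot, while a spot at a mean of 7.59 gave -0.70. Several glycolytic genes were near the top of the scanner range: Aldoa, an aldolase, lay between 15.98 and 16.00 in every sample, and Pgk1 and Ldha, a kinase and a dehydrogenase of the pathway, at 14.97 or higher. Both members for pH and lactate were above 0. For Slc16a3, the lactate exporter, samples read 12.00 and 11.89 in wild-type normoxia, 13.87 and 13.89 in hypoxia, 9.89 and 11.01 in knockout-labelled normoxia and 13.09 and 12.94 in hypoxia. Knockout-labelled values were below wild-type values in both conditions, by more in normoxia, so the response was 1.94 against 2.56, a difference of 0.63 (SE 0.50), the highest of the list. It rested on the 9.89 of knockout-labelled normoxia replicate 1, without which it was 0.07. The mean with its second spot, near background at 2.69, gave 0.01. The other was the dim Car9, a carbonic anhydrase, at 0.12 (SE 0.53).

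Of the targets for mitochondria and mitophagy, 6 of 8 were below 0, with a median of -0.21. Mxi1, a repressor that opposes Myc, had -0.43 (SE 0.52), and Higd1a, a respiratory supercomplex factor, -0.43 (SE 0.37). Bnip3, a mitophagy receptor, responded by 2.64 and 2.45, a difference of -0.19 (SE 0.55), and Ak4, an adenylate kinase, by 2.32 and 2.15. Ndufa4l2, a complex I-associated subunit, had nearly equal responses of 2.49 and 2.50 from different levels, with 4.89 and 5.54 in knockout-labelled normoxia against 7.98 and 7.79 in wild-type normoxia, and its SE was 1.38. Cox4i2, the hypoxic isoform of a cytochrome oxidase subunit, was above 0 at 0.57 (SE 0.45). For vessels and vascular tone, 7 of 8 were below 0 with a median of -0.23, among them Vegfa, the vascular growth factor, at -0.20 (SE 0.51) and Stc2, a secreted glycoprotein, at -0.58 (SE 0.55). Angptl4, a lipase inhibitor, read 13.47 and 10.58 in wild-type normoxia alone, and its difference of -0.26 carried an SE of 1.95. For collagen and protein folding, 5 of 6 were below 0 with a median of -0.14. P4ha1 and P4ha2, subunits of collagen prolyl hydroxylase, had 0.17 (SE 0.23) and -0.29 (SE 0.31), and a second spot of P4ha1 gave -0.21. The remaining targets were split, with 7 of 13 below 0 and a median of -0.04. Among them Vldlr, a lipoprotein receptor, had -0.62 (SE 0.45), Ndrg1, a stress-responsive protein, -0.48 (SE 0.76) and Fam162a, a mitochondrial protein, -0.34 (SE 0.36). A second spot above the brightness filter was present for 35 of the 68 targets, and it gave the sign of the brightest spot for 23, against 3781 of 7320 genes over all tested.

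**Figure D3:**
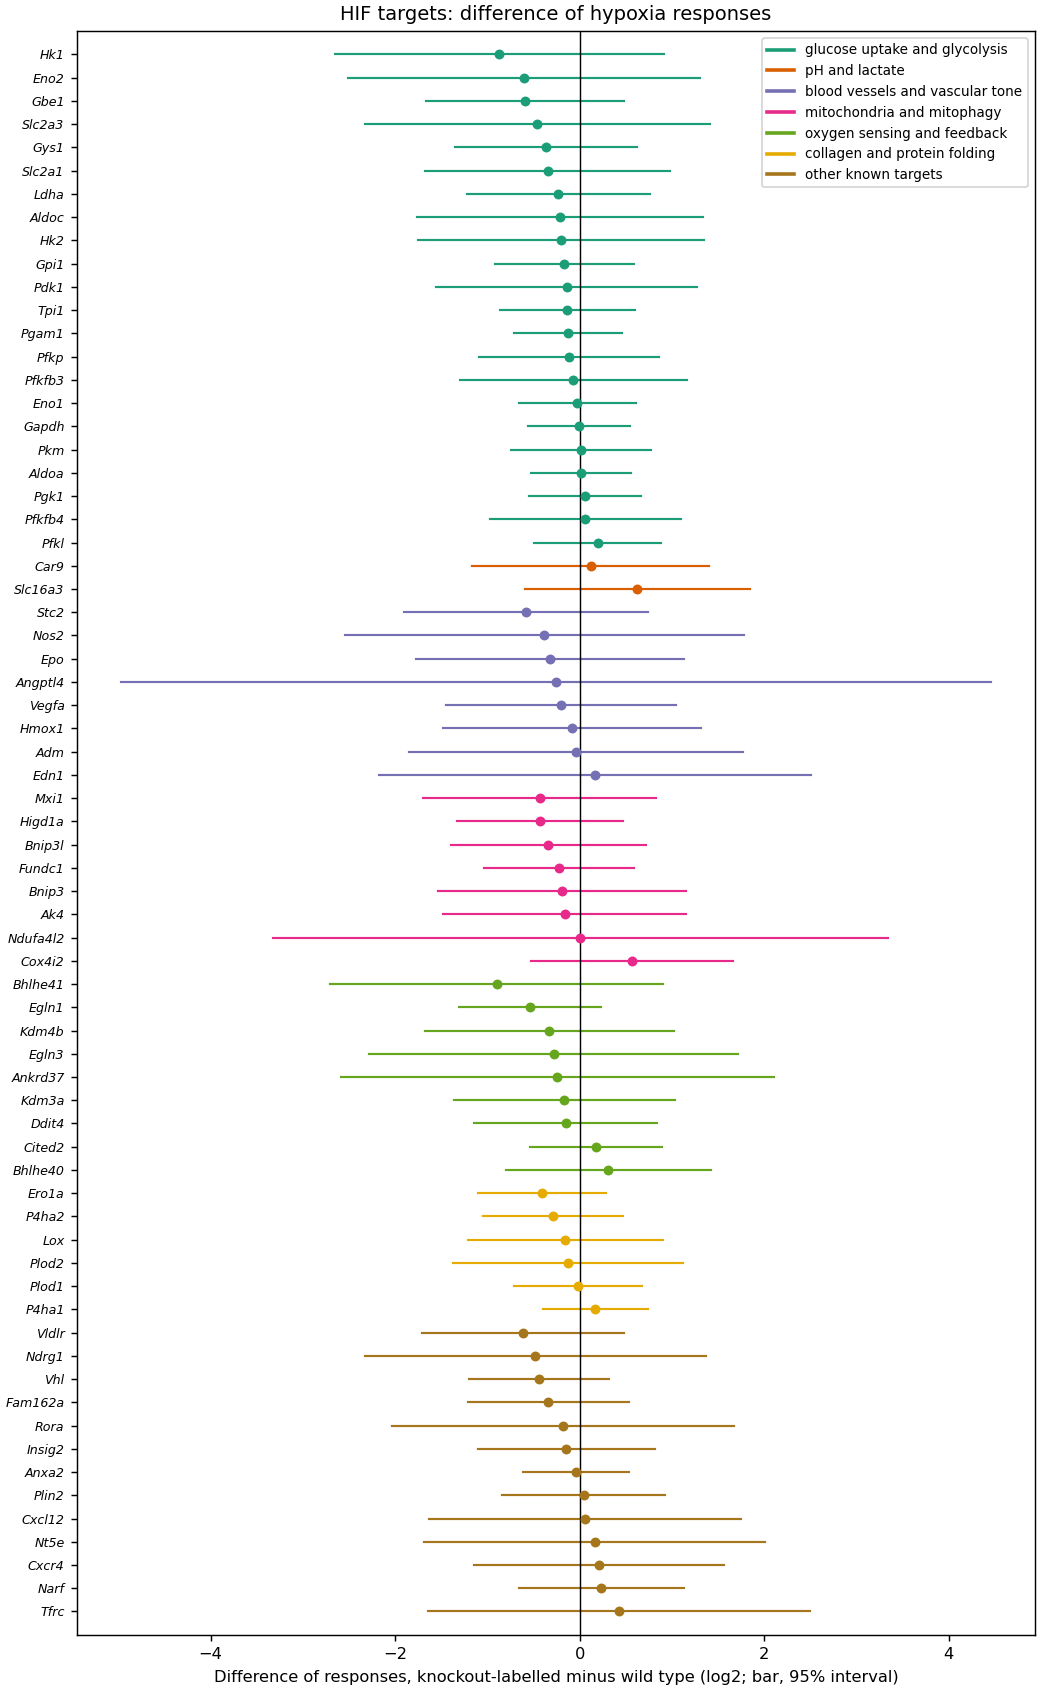
Difference of hypoxia responses (horizontal, log2, knockout-labelled minus wild type) for the 68 HIF targets tested, grouped by role in colour; points are estimates and bars 95% intervals of limma. Every interval spans 0, and 49 of the 68 points lie left of it, with a median of -0.16.

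**Figure D4:**
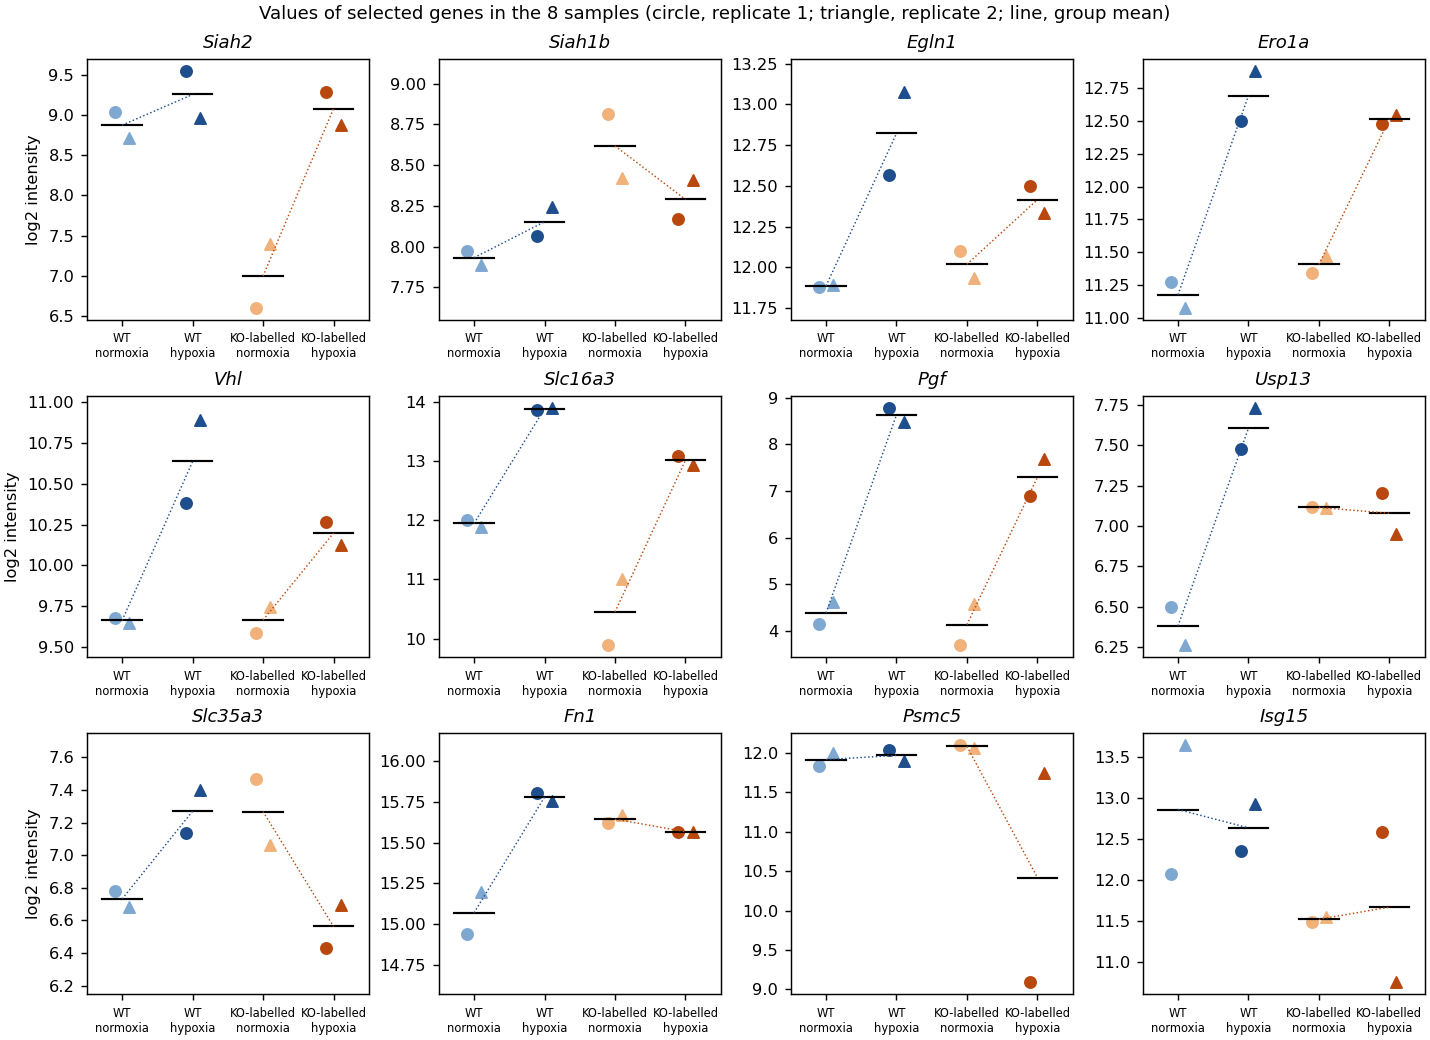
Log2 intensity of 12 genes in the 8 samples, with circles for replicate 1, triangles for replicate 2 and lines for group means; each panel has its own vertical range, and dotted lines join normoxia to hypoxia within a genotype. Siah2 is low only in knockout-labelled normoxia, Egln1, Ero1a and Vhl step up in both genotypes, and the Psmc5 difference comes mostly from 1 sample at 9.09.

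To describe responsive genes without choosing them directly on the difference, genes were taken by the average of the genotypes' responses. In this balanced design the average is unrelated to the difference only if responses vary equally in the genotypes. Over genes with a mean of at least 6, their standard deviation was 0.28 in the wild type and 0.24 in knockout-labelled cells. With a larger spread in the wild type, a high average favours a difference below 0. The signs below are thus not free of the choice. This choice was made after values had been seen. With a mean of at least 6, an average response of at least 1 and an unadjusted p under 0.05 in limma, 54 genes qualified, 22 of them HIF targets, and all 54 were higher with hypoxia in both genotypes. The difference was below 0 for 44 and above 0 for 10, with a median of -0.31. The median response was 1.74 in the wild type against 1.41 in knockout-labelled cells. Between the genotypes, the median of knockout-labelled minus wild type over these genes was -0.09 in normoxia and -0.41 in hypoxia. Pairings separated for 1 of them downward, Ero1a, and for 1 upward, Siah2, shares below the 4.4% and 3.87% of all genes.

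These genes, named after their values were seen, were led by Pgf, H19 and Mboat2 at the lower end, apart from genes whose SE exceeded the difference. Pgf, the placental growth factor, read 4.14 and 4.63 in normoxia and 8.78 and 8.49 in hypoxia in the wild type. In knockout-labelled cells Pgf read 3.70 and 4.57 in normoxia and 6.90 and 7.69 in hypoxia. Normoxia values overlapped between the genotypes, and both knockout-labelled hypoxia values were below both wild-type ones. The responses were 4.25 and 3.16, a difference of -1.09 (SE 0.57). H19, an imprinted noncoding RNA, responded by 1.88 and 0.58, a difference of -1.31 (SE 0.70), and Mboat2, a lysophospholipid acyltransferase, by 1.91 and 1.06, a difference of -0.85 (SE 0.44). At the other end Siah2 was highest and Slc16a3 next. Apln, the peptide ligand apelin, responded equally strongly in both, by 3.57 and 3.55 (difference -0.02, SE 0.75).

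The smaller response of these genes was not seen in every sample. In the wild type, the median over the 54 genes was 1.50 and 1.29 for hypoxia replicate 1 against normoxia replicates 1 and 2, and 2.07 and 2.06 for hypoxia replicate 2. In knockout-labelled cells the corresponding medians were 1.66 and 1.52 for hypoxia replicate 1 and 1.33 and 1.06 for hypoxia replicate 2. Wild-type hypoxia replicate 2 thus gave the highest medians and knockout-labelled hypoxia replicate 2 the lowest one, while for hypoxia replicate 1 the medians were higher in knockout-labelled cells. Without wild-type hypoxia replicate 2 the median difference over the 54 genes was 0.05. The HIF target list was alike in this, with medians of 0.49 and 0.54 for replicate 1 and 1.13 and 0.97 for replicate 2 in the wild type, and 0.58 and 0.55 against 0.37 and 0.44 in knockout-labelled cells. The macrophage and leukocyte markers were also highest in replicate 2 of the wild type (11.62 in normoxia and 11.59 in hypoxia) and lowest in replicate 2 of the knockout-labelled cells (9.92 and 10.01). In replicate 1 they were at 11.17 and 11.14 in the wild type and at 10.75 and 10.74 in knockout-labelled cells. Of these markers, 4 of the 15 tested had a difference of responses below 0 and 11 above, with a median of 0.04. Their part in the result was not tested.

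**Figure D5:**
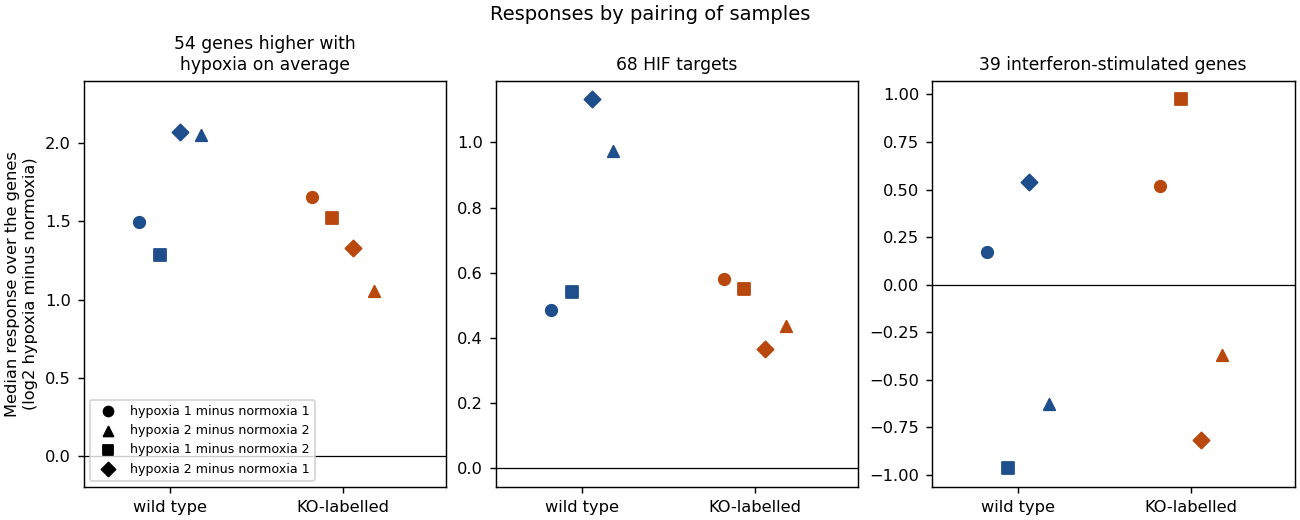
Median hypoxia response (vertical, log2) over 3 gene sets for each of the 4 pairings of a hypoxia with a normoxia sample within a genotype; marker shapes name the replicates. For the 54 genes and the HIF targets the wild-type pairings with hypoxia replicate 2 lie above all others, and for the interferon-stimulated genes the sign depends on the pairing in both genotypes.

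Genes were also chosen on one genotype's response and read in the other. Of 60 genes with a mean of at least 6 that were higher by at least 1 in the wild type at an unadjusted p under 0.05, the median was 1.52 in the wild type and 1.27 in knockout-labelled cells, where 58 kept the sign and 7 had the larger response. Of 39 genes chosen the same way on knockout-labelled cells, the median was 1.58 there and 1.91 in the wild type, where all 39 had the same sign and 28 the larger response. Without the limit on brightness, the order followed the genotype chosen on. The 155 genes chosen on the wild type had medians of 1.29 there and 0.51 in knockout-labelled cells, where 8 had the larger response. The 101 chosen on knockout-labelled cells had 1.23 there and 0.59 in the wild type, where 33 had the larger one. Genes lower by at least 1 at an unadjusted p under 0.05 in limma were also read. Without the limit on brightness, 40 of 79 chosen on the wild type kept the sign in knockout-labelled cells. Of those chosen on knockout-labelled cells, 29 of 57 kept it in the wild type. At a mean of at least 6 these were 1 of 1 and 1 of 4. A choice on 1 response favours that response. The wild-type responses read here include hypoxia replicate 2, without which the median difference of the 54 genes above was 0.05. These choices were not repeated with a sample left out. Across the 11013 genes with a mean of at least 6 the responses had a Pearson r of 0.52 and a Spearman rho of 0.27. Across all 17014 these were 0.17 and 0.12, genes not being independent replicates.

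Interferon-stimulated genes, which carry out antiviral defence, had mostly positive differences, which depended on single samples. Of 39 tested, 34 had a difference above 0, with a median of 0.29, a median response of -0.23 in the wild type and 0.10 in knockout-labelled cells, but 0 separated and 0 reached an unadjusted p under 0.05. The 2 with the smallest p were Oasl1 (0.79, SE 0.75) and Cmpk2 (1.48, SE 1.43). Isg15, a ubiquitin-like modifier, read 12.08 and 13.64 in wild-type normoxia, 12.35 and 12.92 in hypoxia, 11.49 and 11.55 in knockout-labelled normoxia and 12.58 and 10.76 in hypoxia. It was named after its values were seen. The replicates of wild-type normoxia and of knockout-labelled hypoxia were further apart than the condition means. The mean level of the list was 8.21 and 9.34 in wild-type normoxia, 8.44 and 8.67 in hypoxia, 8.14 and 7.78 in knockout-labelled normoxia and 8.79 and 7.41 in hypoxia. Its median difference was -0.29 when wild-type normoxia replicate 2 was left out. Without replicate 1 of knockout-labelled hypoxia it was -0.26 and without replicate 2 it was 1.15, so no direction is given.

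Matrix and myofibroblast genes, the output of activated fibroblasts, showed no common shift, with 20 of 39 below 0 and a median of -0.00096. The member with the smallest p was Fn1, fibronectin. It read 14.94 and 15.20 in wild-type normoxia, 15.80 and 15.76 in hypoxia, 15.62 and 15.67 in knockout-labelled normoxia and 15.57 in both knockout-labelled hypoxia samples. Wild-type normoxia stood below the rest, and the difference was -0.79 (SE 0.25, unadjusted p = 0.0181 and adjusted p = 1.00 in limma). That spot was close to the top of the scanner range, and the other 3 spots of Fn1 gave 0.32, 0.32 and -0.17. Smad7, an inhibitor of TGF-beta signalling, had -0.47 (SE 0.27) on its brightest spot and -0.01 on the other. Col5a2, a fibrillar collagen chain named after its values were seen, had -0.41 (SE 0.24), and its second spot 0.35.

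NF-kB and inflammatory genes were also evenly split, with 13 of 24 below 0 and a median of -0.0024. Csf2, the cytokine GM-CSF, was dim and in the stronger class, at 2.91 and 3.62 in wild-type normoxia, 3.91 and 3.27 in hypoxia, 3.93 and 4.98 in knockout-labelled normoxia and 3.41 and 2.87 in hypoxia. Its knockout-labelled values were lower with hypoxia and its wild-type values overlapped, for a difference of -1.64 (SE 0.65). Lcn2, the iron-binding lipocalin, had -0.68 (SE 0.32), with 5.79 and 5.68 against 6.47 and 5.97 in the wild type and 5.94 and 5.94 against 5.60 and 5.87 in knockout-labelled cells. Its dimmer spot gave -0.25.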

How the data were processed

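The authors deposited 1 table of 62976 spots by 8 samples, whose values were taken as log2 intensities. The log base was read from the values, and it, the background correction and the normalization are not given in the sources used here. All 8 columns share a median of 3.94, and 10 values are missing. Limma was used by the authors, per the submitters' processing notes. RNA was prepared with RNeasy columns and amplified with the Agilent Low-Input QuickAmp kit, per the labels' protocols.

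Spots were named through the platform annotation and RefSeq (GRCm38.p6): 33704 by accession, 9767 by symbol, 463 by synonym and 7 under the annotation's own name, while 19035 had no gene. The brightest spot stood for each gene, and the dimmest 30% of genes (mean below 3.39) were left out. Limma 3.58.1 under R 4.3.3 fitted 4 group means (4 residual and 2.25 prior degrees of freedom), with Benjamini-Hochberg adjustment over 17014 genes, two-sided. The fit was tested on simulated data of 17011 genes, where 3 unchanged genes were called. The number of arrays limits the precision.

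The gene lists, the class rule and the genes named were chosen with earlier results of these data known. Named were up to 5 genes of each class and direction with a mean of at least 6 and the smallest p, the Siah and oxygen-sensing genes, any HIF target, and up to 2 genes of each other list. Alternatives covered the variance model, blocks for replicate and culture, normalization, the brightness filter, the spot rule and leaving out each sample. Deviations of same-numbered samples from their group means correlated with r of 0.31 and 0.34 within the genotypes (0.57 and 0.61 at a mean of at least 6). Between the genotypes r was -0.26 to -0.38 (-0.49 to -0.72 at a mean of at least 6). With 2 samples a group, this means that samples of opposite number deviated alike across the genotypes. The source of this crossed pattern was not tested. Within a genotype the numbers may mark a shared culture, which the labels do not state. The culture blocks and a block with crossed numbers were run as alternatives.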

Additional observations from a re-analysis of the deposited data

Results flagged for a closer look

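For 10 of the genes named, every wild-type pairing of hypoxia with normoxia moved one way and every knockout-labelled pairing the other. The difference was tested in limma over all genes and was called for 0 of them, with an adjusted p of 1.00. Such opposite movement needs no minimum size. It was seen for 411 of all 17014 genes tested (2.42%), and several of the 10 were named because their responses separated or had the smallest p. The differences were -1.96 for Dct, -1.64 for Elane, -1.31 for Abhd6, -1.24 for Slc35a3, -0.787 for Fn1, -0.684 for Lcn2, -0.548 for Siah1b, -0.407 for Col5a2, 0.0149 for Aldoa and 1.26 for Cfap54. For Slc35a3 the wild-type pairings ran from 0.36 to 0.72 and the knockout-labelled ones from -1.04 to -0.37, and for Fn1 from 0.56 to 0.87 and from -0.10 to -0.05. Aldoa lay at the top of the scanner range in every sample.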

How the results depend on the processing

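The count of called differences was 0 under every alternative that kept all 8 samples, and 0 to 7 when 1 sample was left out, with 1 (Plxna4os1) without wild-type hypoxia replicate 1 and 7 without knockout-labelled hypoxia replicate 2, where the lone sample is assumed to vary like the other groups. The hypoxia response gave 0 to 1 called genes in the wild type and 0 to 7 in knockout-labelled cells in the same fits. The 416 genes at an unadjusted p under 0.05 became 226 when the variance followed a trend, 751 when culture was a fixed block, 854 when it was random, 762 without the brightness filter, 112 with the dimmest 50% removed and 388 to 589 with 1 sample left out. With the replicate block the count was 398, and 0 differences were called. Crossing the numbers between the genotypes gave 664 and 0. The class count of 366 became 41 with the dimmest 50% removed and 243 with the mean over spots. Leaving out 1 sample moved the HIF target median from -0.16 to between -0.32 and -0.0148, that of the 54 genes from -0.31 to between -0.61 and 0.053, and the interferon median from 0.29 to between -0.29 and 1.15, the last being below 0 also without knockout-labelled hypoxia replicate 1, at -0.26. Of 88 named genes, 47 had a difference above its SE, and 44 of these kept the sign under each of the 19 alternatives that tested them. The exceptions were Hk1 (0.0034 without knockout-labelled hypoxia replicate 2, and -1.75 to 0.0034 over the samples left out), Stc2 (0.0048 without wild-type normoxia replicate 2, -1.17 to 0.0048) and Cmpk2 (-0.0382 without knockout-labelled hypoxia replicate 1, -0.04 to 2.99). Of the other 41, 32 changed sign somewhere. Where the pairings of a gene separated, leaving out 1 sample cannot change its sign. The class genes and others among the 47 had separated pairings, so the count of 44 was partly fixed in advance. The variance models, the blocks and the brightness filters leave the difference of a tested gene unchanged. Only normalization, the spot rule and leaving out a sample could therefore change a sign. Beyond fewer genes or samples, the cause was not tested. With 2 samples a group, all simulated as independent, differences of 1 were called in 0% and of 2 in 32% of genes.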

Other observations

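Genes lower with hypoxia on average formed a smaller set, chosen after values had been seen. Where wild-type responses vary more, a choice on a low average favours a difference above 0. With a mean of at least 6, an average of -0.5 or lower and an unadjusted p under 0.05 in limma, 19 genes qualified, and all 19 were lower in both genotypes. The difference was above 0, a smaller drop in knockout-labelled cells, for 14 and below 0 for 5, with a median of 0.18 and median responses of -0.67 in the wild type against -0.54 in knockout-labelled cells. Tefm, a mitochondrial transcription elongation factor, read 6.46 and 6.70 in normoxia and 5.64 and 5.60 in hypoxia in the wild type. In knockout-labelled cells Tefm read 6.15 and 6.44 in normoxia and 6.02 and 6.10 in hypoxia. Its difference was 0.73 (SE 0.27), and 0.34 as the mean with a second spot near background. Of the 19 genes its pairings alone separated, where 3.87% of all genes tested separated in this direction.

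Other programmes differed little between the genotypes' responses. Of cell cycle genes 10 of 29 were below 0 with a median of 0.05, of p53 targets 7 of 17 with 0.03, of ATF4 and unfolded-protein genes 11 of 30 with 0.04, of respiratory chain genes 12 of 21 with -0.02, of NRF2 targets 7 of 17 with 0.05, of heat shock genes 5 of 14 with 0.04, of sterol and fatty acid genes 10 of 19 with -0.0085 and of immediate early genes 9 of 17 with -0.02. Egr3, a growth-factor-induced transcription factor, had 1.12 (SE 0.79), and Uqcrfs1, the iron-sulfur subunit of complex III, -0.20 (SE 0.24) with separated pairings. Among marker lists, fibroblast genes had a median of 0.06, with 6 of 12 below 0, and smooth muscle and pericyte genes 0.12, with 3 of 9 below 0. The contractile genes Des and Myh11, dimmer in knockout-labelled samples, had 1.01 (SE 0.83) and 0.65 (SE 0.50). All 8 endothelial markers tested were below 0, with a median of -0.15, from a list whose mean level was low, at 5.23 to 5.45. Of the 5 cardiomyocyte markers tested, from a list whose mean level was 4.02 to 4.32, 4 were below 0, with a median of -0.32.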
